A study of Mus musculus with 4 samples.

Results

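Among the 32 genes described here are those of the enzymes that build cholesterol and fatty acids. Others encode proteins that sense sterols and switch these enzymes on or off. The rest encode carriers that move sterols within or out of cells, and the oxysterol receptors LXR. The 32 genes were chosen by their function, and every probe whose gene name in the array files equals one of them was used. All 32 genes had a probe, 48 probes in all, among 30222 gene names on the array. All 48 probes were well above background on all 4 arrays, as were 19055 of the gene names, which form the background for the comparisons below. A gene with several probes was represented by the brightest, and 13 of the 32 genes had more than 1.

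RNA was taken from slices of the lumbar spinal cord (L4 to L5) of young male ICR mice, an outbred stock, on day 7 after partial ligation of the right sciatic nerve (PSL), a model of neuropathic pain. All mice carried the nerve injury. ADX+PSL mice had both adrenal glands removed and were given saline to drink, and sham+PSL mice had the glands exposed and left in place, the adrenal cortex being the source of the daily rhythm of corticosterone. Each operation was sampled at ZT10, late in the light phase, and at ZT22, late in the dark phase (ZT0 is lights on), which gave 4 conditions. Each condition was measured on 1 Agilent 1-colour array, and all 4 arrays lay on 1 slide. The number of mice behind each RNA and the side of the cord were not given in the sources used here. Variation from mouse to mouse and slice to slice is therefore part of any difference between arrays.

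Cholesterol in the spinal cord is made locally, because the blood-brain barrier keeps out lipoprotein cholesterol, and much of it goes into myelin, the membrane wrap that oligodendrocytes lay around axons. When sterols run low, the escort protein SCAP carries SREBP transcription factors from the endoplasmic reticulum to the Golgi, where they are cut and released to switch on the genes of sterol and fatty acid synthesis. When sterols are plentiful, INSIG proteins hold SCAP back, while the oxysterol receptors LXR switch on the export pumps ABCA1 and ABCG1.

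The levels are the authors' quantile-normalized intensities in arbitrary units (a.u.), and differences are on the log2 scale. The error the image analysis assigned to a single spot gave a log2 difference between 2 arrays an error of 0.20 (median over the 32 genes, range 0.20 to 0.21). Probes printed 10 times gave a smaller technical SD of 0.075 for such a difference. Neither covers differences between mice. Among the whole set of probes, 65.1% to 70.1% were well above background on an array, and no probe was saturated. Signals of other tissues differed between the arrays: the summed level of 6 erythroid genes was 18770 a.u. in sham+PSL at ZT22 against 89810 to 135900 on the others, and that of 7 meningeal fibroblast genes was 4699 and 5251 in ADX+PSL against 13970 and 15690 in sham+PSL. The 4 Schwann cell genes summed to 665 and 409 a.u. in sham+PSL at ZT10 and ZT22 and to 159 and 158 in ADX+PSL, with Pmp2 not well above background on any array, and the 5 fast skeletal muscle genes summed to 1513 a.u. in sham+PSL at ZT10 and to 109 to 111 on the others. Of 6 adipocyte genes, Adipoq, Plin1 and Lep were not well above background on any array, Fabp4 was so on 1, Cfd on 2 and Retn on all 4, at 25.8 to 36.2 a.u., and the summed level lay between 62.7 and 78.4 a.u. The part of these tissues in the results was not tested. In tissue RNA, fewer cells of a type and less RNA per cell cannot be told apart.

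At the median, the lipid synthesis genes varied over the 4 arrays about as much as all genes. The highest array was a median of 1.21-fold above the lowest (all 19055 genes, 1.23-fold), and 30 of the 32 genes (93.8%) stayed within 1.5-fold, against 83.8% of all genes. The range was widest for Cyp51 (2.10-fold) and Hsd17b7 (1.67-fold), followed by Abca1 (1.42-fold) and Srebf1 (1.35-fold), and narrowest for Acaca (1.05-fold) and Scd2 (1.08-fold). The highest level lay on the sham+PSL ZT22 array for 14 of the 32 genes (24.8% of all genes), and the lowest on the ADX+PSL ZT22 array for 13 (25.1% of all genes).

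**Figure D1:**
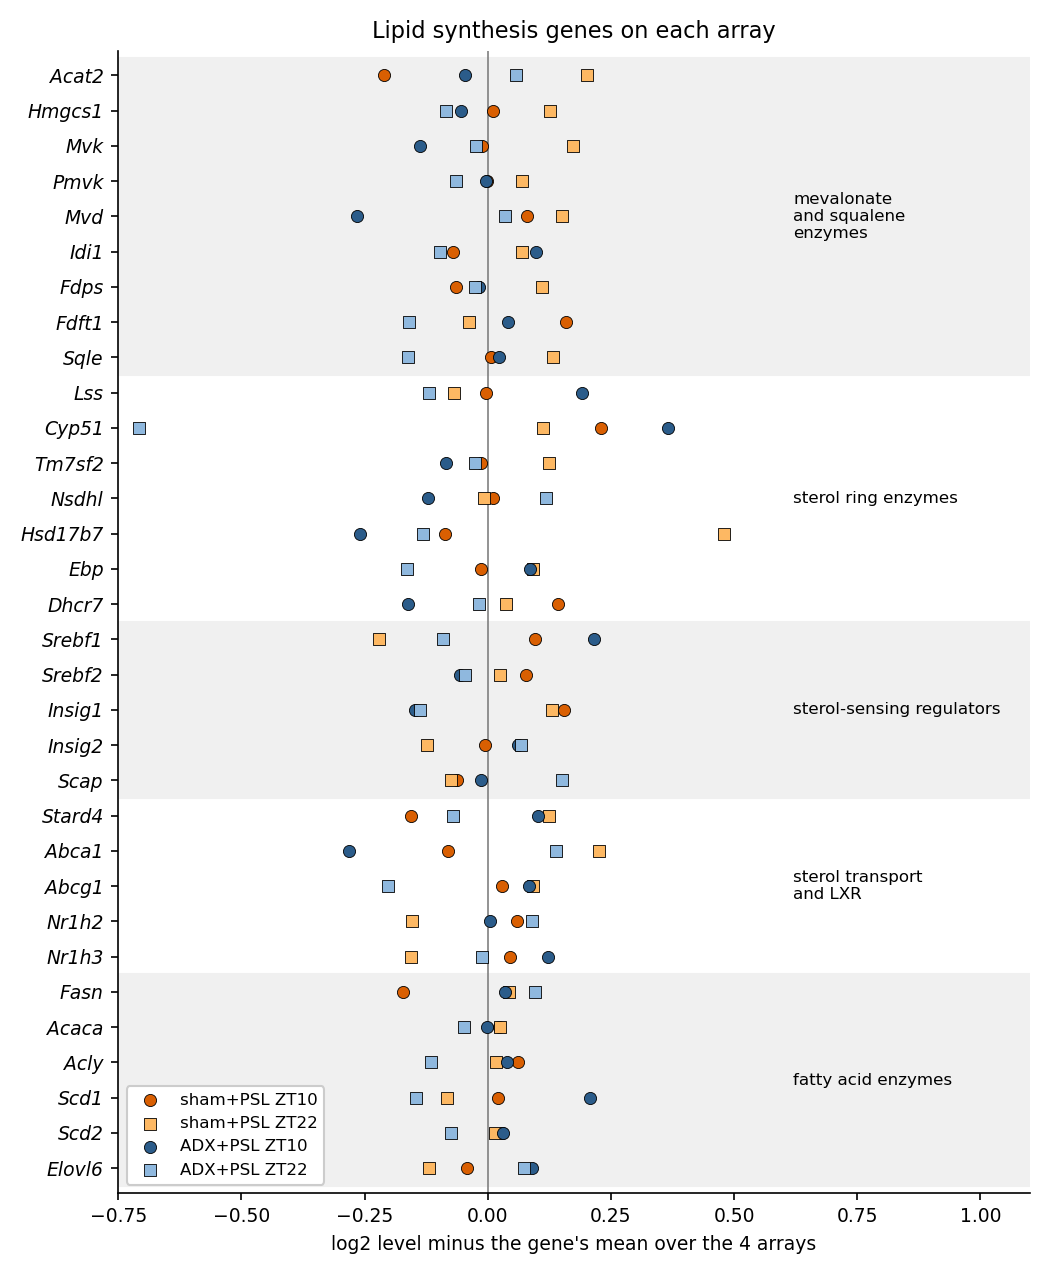
Level of each of the 32 genes on each of the 4 arrays, as the log2 level minus the gene's own mean over the arrays (x axis), with genes grouped by role (y axis, shading). Circles are ZT10 and squares ZT22, orange sham+PSL and blue ADX+PSL; Cyp51 on the ADX+PSL ZT22 array and Hsd17b7 on the sham+PSL ZT22 array lie farthest from their genes' means.

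The contrast with the most shared direction was ADX+PSL against sham+PSL at ZT22. There the median log2 difference of the 32 genes was -0.12 (all genes, 0.011), and 24 of 32 (75%) were lower in ADX+PSL, against 48.0% of all genes. At ZT10 the same contrast had a median of 0.0099 (all genes, 0.0046), with 15 of 32 lower. Between times, the median of ZT10 minus ZT22 was 0.0042 in sham+PSL, with 16 of 32 below 0, and 0.023 in ADX+PSL, with 14 of 32 below 0. The ZT22 contrast rested on 1 array each, and most of its differences were smaller than the spot error of 0.20.

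Few genes passed 1.5-fold. At ZT22, Cyp51 and Hsd17b7 were at least 1.5-fold lower in ADX+PSL than in sham+PSL (2 of 32 genes; 3.34% of all genes), and none was as much higher (2.9% of all genes). At ZT10, no gene was 1.5-fold higher (3.13% of all genes) or lower (3.18% of all genes) in ADX+PSL. Between times in ADX+PSL, Cyp51 was higher at ZT10 (1 of 32; 1.84% of all genes) and no gene was lower (2.76% of all genes). Between times in sham+PSL, none was higher (2.48% of all genes) or lower (3.58% of all genes) by 1.5-fold.

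**Figure D2:**
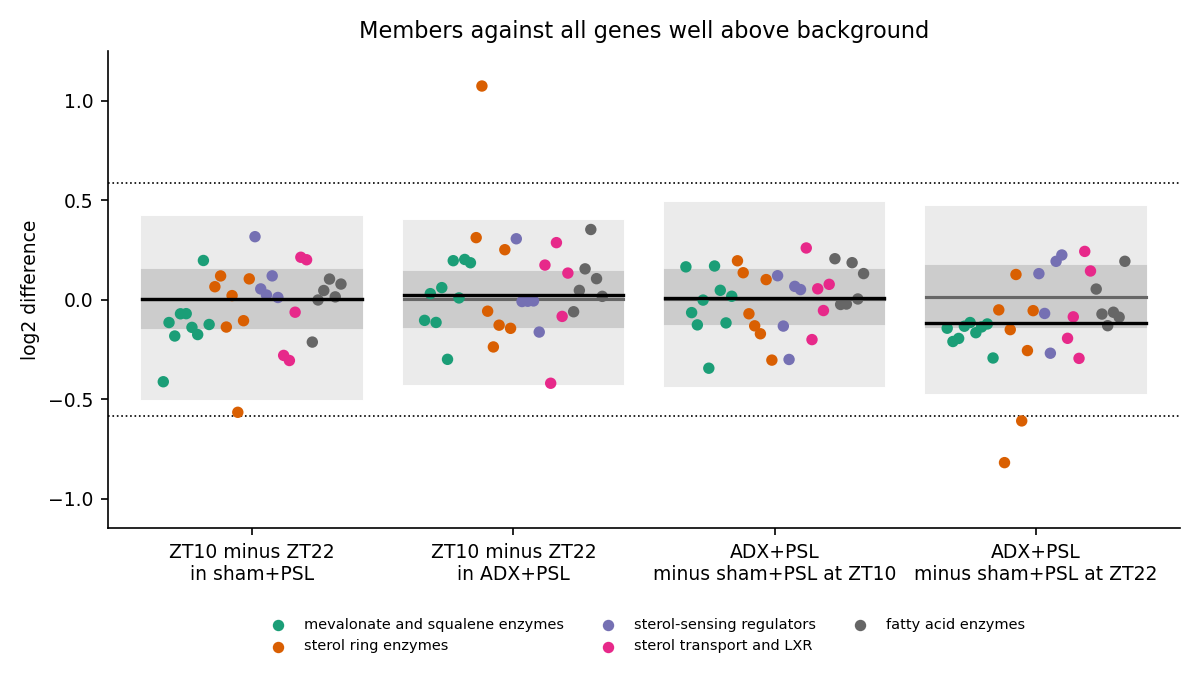
Log2 difference (y axis) of the 32 genes, as points coloured by role, in the 4 contrasts between arrays (x axis). Light and dark grey bands span the 5th to 95th and the 25th to 75th percentiles of all 19055 genes, grey and black lines are the medians of all genes and of the 32 genes, and dotted lines mark 1.5-fold; the black line lies at -0.12 for ADX+PSL minus sham+PSL at ZT22.

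By a second reading, which asks whether both arrays of one side lie beyond both of the other, 10 of 32 genes had both ADX+PSL levels below both levels of sham+PSL (15.7% of all genes) and 3 had both above (19.2% of all genes). The 10 lower genes were Hmgcs1, Mvk, Pmvk, Mvd, Tm7sf2, Hsd17b7, Dhcr7, Srebf2, Insig1 and Acaca, and the 3 higher ones Scap, Insig2 and Elovl6. For Pmvk, Tm7sf2, Hsd17b7 and Acaca this held for the brightest probe only, and no other probe of theirs separated the operations in this way. The gap between the sides was above the technical SD for 2 of the 32 genes, Insig1 and Elovl6, against 18.4% of all genes. For the times of day, 3 genes were lower on both ZT10 arrays than on both ZT22 arrays (Acat2, Abca1 and Fasn; 15.9% of all genes) and 8 were higher (Fdft1, Lss, Cyp51, Srebf1, Nr1h3, Acly, Scd1 and Scd2; 17.5% of all genes). The gap was above the technical SD for 6 of the 32 genes, against 15.8% of all genes.

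An additive model of operation and time (limma, 1 residual degree of freedom, adjusted over 19055 genes) called none of the 32 genes for operation (12 genes or 0.063% of all genes called) or for time (7 genes or 0.0367% of all genes). At an unadjusted p under 0.05, limma gave none of the 32 genes for operation (8.71% of all genes) and 1 for time, Abca1 (6.47% of all genes). The lowest p for operation was that of Hsd17b7 (log2 difference -0.39, SE 0.16, limma adjusted p = 0.59). For time it was that of Abca1 (log2 difference -0.36, SE 0.13, limma adjusted p = 0.74). Any departure of one operation's time effect from the other's counts as error in this fit, and Cyp51, low on 1 array only, carries a large error (SE 0.24).

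The first steps of the pathway join acetyl units into mevalonate and mevalonate into squalene. By their brightest probes, all 9 enzymes of this stretch were lower in ADX+PSL than in sham+PSL at ZT22. The log2 differences lay within a narrow range of -0.29 to -0.12 (median -0.14), while at ZT10 5 of 9 were lower (median -0.0026). Acat2, the cytosolic thiolase that pairs acetyl-CoA, had levels of 814 a.u. at ZT10 and 1083 at ZT22 in sham+PSL mice, and 912 at ZT10 and 980 at ZT22 in ADX+PSL mice. Both ZT10 arrays were below both ZT22 arrays, by log2 0.41 in sham+PSL and 0.10 in ADX+PSL. Hmgcs1, which makes HMG-CoA in the cytosol, had 39658 and 42959 a.u. in sham+PSL at ZT10 and ZT22, and 37897 and 37122 in ADX+PSL. Its second, dim probe (48.3 to 67.0 a.u.) was also lower in ADX+PSL at both times.

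The kinases and the decarboxylase that turn mevalonate into isopentenyl diphosphate had the same order of operations at both times. Mvk, mevalonate kinase, had 9531 and 10820 a.u. in sham+PSL at ZT10 and ZT22, and 8727 and 9451 in ADX+PSL. Pmvk, phosphomevalonate kinase, had 12224 and 12844 a.u. in sham+PSL and 12202 and 11705 in ADX+PSL, so that the ZT10 arrays hardly differed. Mvd, the decarboxylase, had 1901 and 1996 a.u. in sham+PSL and 1497 and 1843 in ADX+PSL. Its difference at ZT10 (log2 -0.34) was the lowest of the 32 genes in that contrast. The second probe of Mvk was lower in ADX+PSL at both times as well, while that of Pmvk was higher at both (log2 0.06 and 0.03).

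For the enzymes that follow, up to squalene epoxide, the operations overlapped. Idi1, the isomerase, had 6785 and 7475 a.u. in sham+PSL at ZT10 and ZT22, and 7626 and 6660 in ADX+PSL, so the time of the higher level was opposite in the operations. Sqle, squalene epoxidase, a rate-controlling step, had 12901 and 14070 a.u. in sham+PSL and 13051 and 11481 in ADX+PSL, with the same crossing. Fdft1, squalene synthase, was higher at ZT10 on both sides, with 5682 and 4959 a.u. in sham+PSL and 5239 and 4556 in ADX+PSL. The log2 difference between the times was 0.20 in each operation. A dim second probe of Fdft1 was higher at ZT10 in sham+PSL (log2 0.29) but not in ADX+PSL (log2 -0.04). Fdps, farnesyl diphosphate synthase, lay between 14221 and 16063 a.u., with the top level in sham+PSL at ZT22.

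The next enzymes close squalene into the first sterol ring and trim it to cholesterol, and both genes past 1.5-fold are among them. Of the 7, 6 were lower in ADX+PSL at ZT22 by their brightest probes (median log2 -0.15), the exception being Nsdhl. Cyp51, lanosterol demethylase, had 581 a.u. at ZT10 and 535 at ZT22 in sham+PSL mice, and 638 at ZT10 and 303 at ZT22 in ADX+PSL mice. A single array was low, and the other 3 lay between 535 and 638 a.u. In ADX+PSL at ZT22 the level was 1.76-fold below sham+PSL at the same time (log2 -0.82, spot error 0.20) and 2.10-fold below ADX+PSL at ZT10. Cyp51 had 1 probe, at chr5:4081471-4081530 (mm9), so no second probe bears on this array.

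Hsd17b7, which reduces a sterol keto group in the same stretch, was high on a single array. Its levels were 887 a.u. at ZT10 and 1313 at ZT22 in sham+PSL mice, and 787 at ZT10 and 860 at ZT22 in ADX+PSL mice. The ADX+PSL array at ZT22 was 1.53-fold below the sham+PSL array (log2 -0.61, spot error 0.20). Its brightest probe lies at chr1:171883182-171883241 (mm9), and 2 further probes lie at chr1:171880203-171880262 and chr1:171885632-171885691. These 2 had their highest level on the same sham+PSL ZT22 array, with log2 differences at ZT22 of -0.33 and -0.34, short of 1.5-fold. The 3 probes thus shared the direction at ZT22 and differed in size. With the mean over probes the difference was log2 -0.42, and with normexp background correction -0.53, both short of 1.5-fold.

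**Figure D3:**
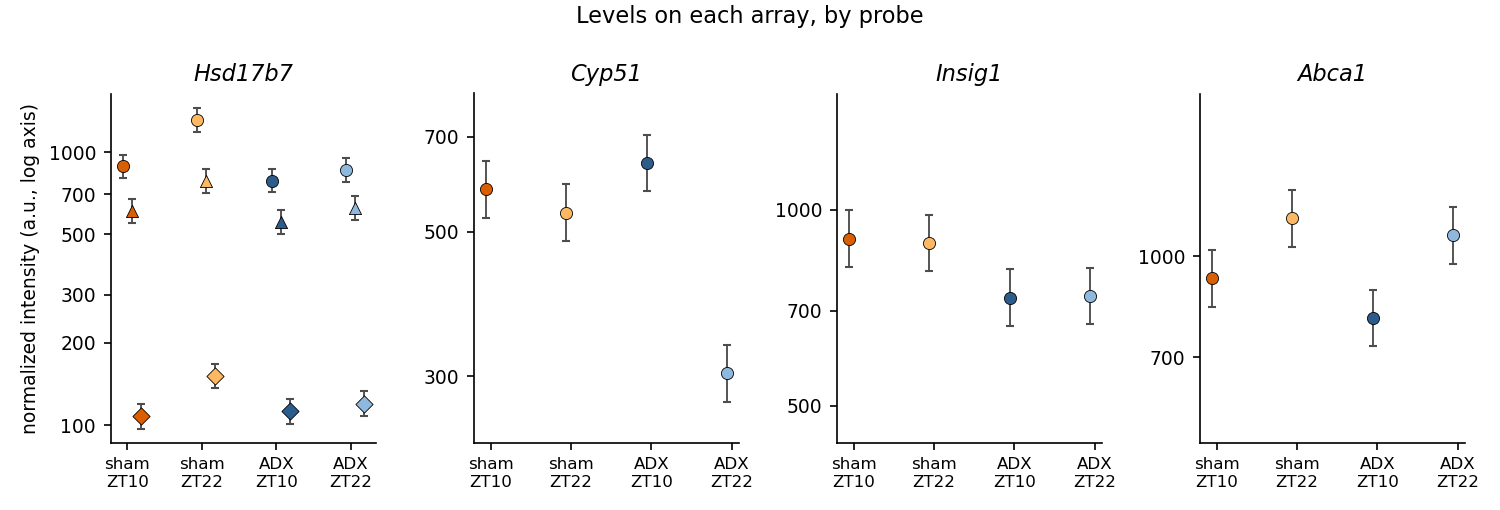
Normalized intensity (y axis, a.u., log axis) of Hsd17b7, Cyp51, Insig1 and Abca1 on each array (x axis), with circles for the brightest probe and a triangle and a diamond for the further probes of Hsd17b7. Bars are the spot error of 1 array; all 3 Hsd17b7 probes peak in sham+PSL at ZT22, and Cyp51 lies at 303 a.u. in ADX+PSL at ZT22.

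The remaining ring enzymes differed less between the arrays. Tm7sf2, a sterol reductase, had 4848 and 5334 a.u. in sham+PSL at ZT10 and ZT22, and 4614 and 4804 in ADX+PSL. Its second probe was lower in ADX+PSL at ZT10 (log2 -0.09) but not at ZT22 (log2 0.02). Dhcr7, the last reductase on the way to cholesterol, had 1196 and 1113 a.u. in sham+PSL and 969 and 1071 in ADX+PSL, so both ADX+PSL levels were lower and the times were in opposite order. Lss, which closes the ring, had 406 and 388 a.u. in sham+PSL and 465 and 375 in ADX+PSL. It was higher at ZT10 in both operations, by log2 0.06 and 0.31. Ebp, a sterol isomerase, had 7701 and 8288 a.u. in sham+PSL and 8255 and 6939 in ADX+PSL, lowest in ADX+PSL at ZT22. Nsdhl, which takes part in removing methyl groups, lay between 1466 and 1729 a.u. by its brightest probe and was higher in ADX+PSL at ZT22 (log2 0.13), whereas its dim second probe was lower (log2 -0.61).

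Over the whole stretch from Acat2 to Dhcr7, 15 of 16 enzymes were lower in ADX+PSL at ZT22 by their brightest probes (median log2 -0.15). At ZT10, 9 of 16 were lower (median -0.034). The second probes of Pmvk and Tm7sf2 were slightly higher in ADX+PSL at ZT22 (log2 0.03 and 0.02). Further probes of Hmgcs1, Mvk, Fdft1 and Hsd17b7 were lower, as was that of Nsdhl, the exception by its brightest probe. The sham+PSL ZT22 array held the highest level for 10 of 16 and the lowest for none, and the ADX+PSL ZT22 array held the lowest for 8 of 16. Oligodendrocyte and myelin genes had the same lean at ZT22, but their lowest levels lay elsewhere more often. Of 11 such genes, all well above background, 9 were lower in ADX+PSL at ZT22 (median log2 -0.15), 2 were lower at ZT10 (median 0.029), and the sham+PSL ZT22 array held the highest level for 7. The lowest level of these 11 genes lay on the sham+PSL ZT10 array for 5 and on the ADX+PSL ZT22 array for 4. Their summed level was 489300 a.u. at ZT10 and 523200 at ZT22 in sham+PSL mice, and 507100 at ZT10 and 473300 at ZT22 in ADX+PSL mice. The largest differences at ZT22 were those of Mbp (log2 -0.53), Mobp (-0.44) and Mal (-0.43), while Ermn was higher (0.31). Of 10 microglia and macrophage genes, 9 were lower in ADX+PSL at ZT22 (median -0.40) and 8 at ZT10 (median -0.28). Among 8 astrocyte genes, 5 were lower at ZT22 (median -0.048), as were 5 of 8 neuron genes (median -0.062). The part of these cell types in the enzymes' levels was not tested.

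**Figure D4:**
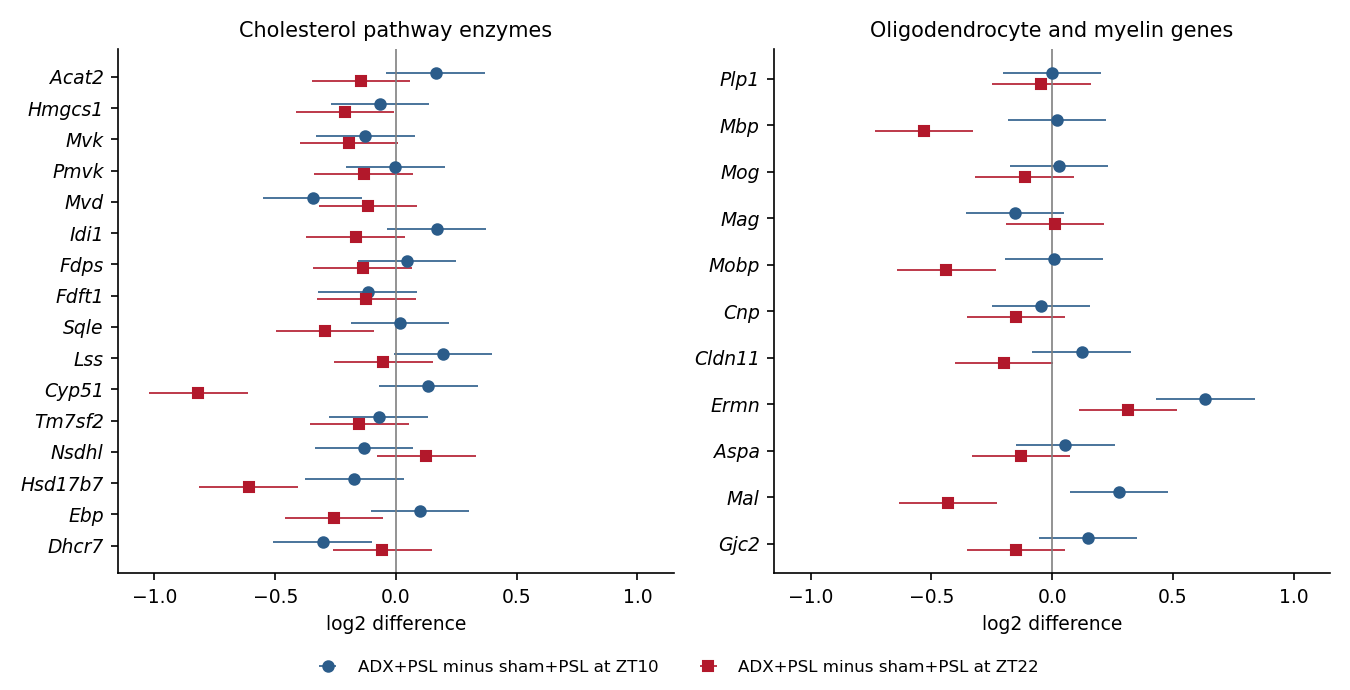
Log2 difference of ADX+PSL minus sham+PSL (x axis) at ZT10 (blue circles) and ZT22 (red squares) for the 16 cholesterol enzymes (left) and 11 oligodendrocyte and myelin genes (right). Bars are the spot error of the difference. By their brightest probes, 15 of 16 enzymes and 9 of 11 myelin genes lie below 0 at ZT22.

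The regulators did not follow the enzymes in a body. Srebf2, which encodes the SREBP that drives mainly sterol genes, had 747 and 720 a.u. in sham+PSL at ZT10 and ZT22, and 681 and 686 in ADX+PSL. Insig1, the retention protein that is itself an SREBP target, had 903 and 889 a.u. in sham+PSL and 733 and 738 in ADX+PSL. It was lower in ADX+PSL by log2 -0.30 at ZT10 and -0.27 at ZT22, while the times differed by log2 0.02 in sham+PSL and -0.01 in ADX+PSL. The gap of 0.27 between the operations was the largest among the 32 genes. Its limma operation estimate was log2 -0.29 (SE 0.13, adjusted p = 0.63).

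The other retention protein and the escort went the opposite way. Insig2 had 3189 and 2936 a.u. in sham+PSL at ZT10 and ZT22, and 3339 and 3355 in ADX+PSL. Scap had 8876 and 8811 a.u. in sham+PSL and 9191 and 10291 in ADX+PSL, highest in ADX+PSL at ZT22 (log2 0.22 above sham+PSL). Srebf1, whose product SREBP-1 drives mainly fatty acid genes, differed with the time of day instead. It had 316 and 254 a.u. in sham+PSL and 343 and 278 in ADX+PSL, so it was higher at ZT10 by log2 0.32 and 0.31 (limma adjusted p = 0.78).

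Among the genes of sterol transport, Abca1, which loads cholesterol onto apolipoproteins, also differed with time, in the reverse direction. It had 924 and 1143 a.u. in sham+PSL at ZT10 and ZT22, and 804 and 1076 in ADX+PSL, lower at ZT10 by log2 -0.31 and -0.42. The gap of 0.22 between the times was the largest among the 32 genes, and both pairs of arrays had the same order. Abcg1, its partner pump, had 2596 and 2713 a.u. in sham+PSL and 2695 and 2210 in ADX+PSL, with the low level in ADX+PSL at ZT22. Nr1h3, LXR alpha, had 519 and 452 a.u. in sham+PSL and 547 and 499 in ADX+PSL. Both of its probes were higher at ZT10 in each operation. Nr1h2, LXR beta, lay between 7422 and 8777 a.u. and was lowest in sham+PSL at ZT22. Stard4, a carrier of cholesterol between membranes, lay between 1289 and 1566 a.u., and its 2 probes had opposite signs for the time of day in sham+PSL (log2 -0.28 and 0.38).

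Of the 6 fatty acid enzymes, 4 were lower in ADX+PSL at ZT22 (median log2 -0.068) and 2 at ZT10 (median 0.067). Acly, which supplies cytosolic acetyl-CoA from citrate, had 25645 and 24849 a.u. in sham+PSL at ZT10 and ZT22, and 25250 and 22689 in ADX+PSL. Acaca, acetyl-CoA carboxylase, had 8352 and 8364 a.u. in sham+PSL and 8211 and 7953 in ADX+PSL, a range of 1.05-fold. Fasn, fatty acid synthase, had 471 and 547 a.u. in sham+PSL and 543 and 567 in ADX+PSL, lowest in sham+PSL at ZT10. The desaturases were higher at ZT10 on both sides, in unequal measure. Scd1 had 10212 and 9507 a.u. in sham+PSL and 11612 and 9097 in ADX+PSL, a log2 difference between times of 0.10 and 0.35. Scd2, the main desaturase of the nervous system, had 90379 and 89534 a.u. in sham+PSL and 90570 and 84209 in ADX+PSL. Elovl6, which lengthens palmitate, had 5087 and 4820 a.u. in sham+PSL and 5569 and 5507 in ADX+PSL, and with Scap and Insig2 it was 1 of the 3 genes higher on both ADX+PSL arrays.

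A second list of 37 genes of the same pathways, none of them among the 32 (further desaturases, elongases, acyl-CoA synthetases and sterol enzymes), leaned the same way at ZT22. Of these, 26 (70.3%) were lower in ADX+PSL at ZT22 (median log2 -0.13) and 17 at ZT10 (median 0.0075). The sham+PSL ZT22 array held the highest level for 19 of 37. Past 1.5-fold were Acsl3, an acyl-CoA synthetase, with 2711 and 2467 a.u. in sham+PSL at ZT10 and ZT22 and 3285 and 2035 in ADX+PSL (log2 between times in ADX+PSL 0.69), and Lcat, which esterifies cholesterol on lipoproteins, with 690 and 896 a.u. in sham+PSL and 645 and 590 in ADX+PSL (log2 at ZT22 -0.60). Each was 1 of 37 genes past 1.5-fold in its contrast (1.84% of all genes for that of Acsl3 and 3.34% for that of Lcat). Acsl3 was, like Cyp51, highest in ADX+PSL at ZT10 and lowest in ADX+PSL at ZT22.

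The promoters of the 32 genes were read for the motifs of the factors that control them. RefSeq promoters of GRCm38.p6, from 250 bases before to 50 bases after each annotated start, were held for 25 of the 32 genes. On either strand, the box of the SREBP partner NF-Y (CCAAT) was found in 18 of 25 genes (72%), against 41.1% of 27025 genes in the table, and the Sp1 box (GGGCGG) in 19 (76%), against 38.2%. The E-box (CACGTG) was found in 5 (20%; 8.09% of all) and a glucocorticoid half-site (AGAACA) in 8 (32%; 21.3% of all). The sterol regulatory element in the spelling TCACNCCAC was found in Hmgcs1 only (1 of 25 or 4%; 1.44% of all). Motifs of such length match by base composition alone at some rate, and a match is a description, not a site in use.

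Shown here are the upstream bases of the 4 genes on which the results turned or that held the sterol element: Hmgcs1 (chr13:119690171-119690350, plus strand, up to the annotated start), Hsd17b7 (chr1:169969206-169969385, minus strand), Cyp51 (chr5:4104698-4104877, minus strand) and Insig1 (chr5:28071182-28071361, plus strand, ending 51 bases before the start). Each is written 5′ to 3′ on the gene's own strand, with capitals for the NF-Y box (CCAAT, or ATTGG when it lies on the opposite strand), for the sterol element and for the E-box.
Hmgcs1: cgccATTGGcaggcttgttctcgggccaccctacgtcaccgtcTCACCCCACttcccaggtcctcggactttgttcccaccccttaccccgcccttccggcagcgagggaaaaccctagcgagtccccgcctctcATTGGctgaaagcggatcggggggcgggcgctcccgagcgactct
Hsd17b7: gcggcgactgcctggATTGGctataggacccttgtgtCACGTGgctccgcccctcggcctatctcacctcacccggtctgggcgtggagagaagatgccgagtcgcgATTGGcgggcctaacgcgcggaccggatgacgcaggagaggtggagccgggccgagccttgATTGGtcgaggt
Cyp51: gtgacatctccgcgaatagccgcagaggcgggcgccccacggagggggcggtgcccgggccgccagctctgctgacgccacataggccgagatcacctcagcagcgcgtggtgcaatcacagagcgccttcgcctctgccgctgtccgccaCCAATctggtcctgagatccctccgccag
Insig1: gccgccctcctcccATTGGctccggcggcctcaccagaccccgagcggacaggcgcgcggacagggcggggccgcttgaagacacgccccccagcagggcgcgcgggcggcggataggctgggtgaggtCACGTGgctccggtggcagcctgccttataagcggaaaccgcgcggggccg

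In these sequences the sterol element of Hmgcs1 lies between its NF-Y boxes, beginning 137 bases before the start. Hsd17b7 holds 3 NF-Y boxes and an E-box, and Cyp51 and Insig1 each show 1 NF-Y box, that of Cyp51 29 bases before the start. All 4 genes were lower in ADX+PSL at ZT22, but Hsd17b7, Cyp51 and Insig1 were shown because of their values. By their brightest probes, 14 of the 18 genes with an NF-Y box were lower there, as were 3 of the 7 without (48.0% of all genes). The 4 with the box that were not lower were Nsdhl, Srebf1, Insig2 and Fasn. Most genes with the box are cholesterol enzymes already counted above. Fdps, Fdft1, Sqle, Stard4, Abcg1, Scd1 and Scd2, with no promoter held, were also lower at ZT22. A link between the box and the direction was not tested. Over all promoters held for the 25 genes there were 39 NF-Y boxes, 33 of them within 200 bases before the start, and up to 5 in 1 promoter.

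**Figure D5:**
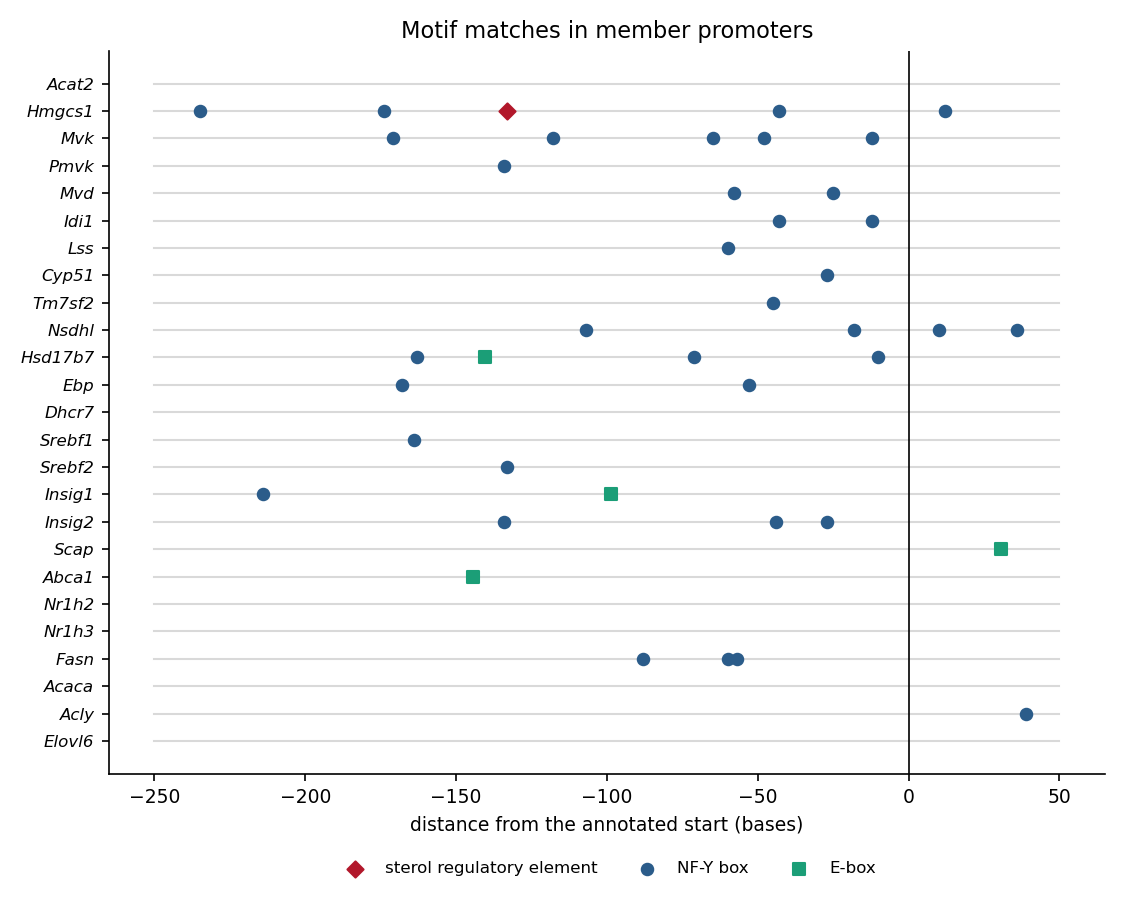
Places of the sterol regulatory element (red diamond), NF-Y box (blue circle) and E-box (green square) on either strand, by distance from the annotated start in bases (x axis), in the first listed promoter of each of the 25 genes held (y axis). In the spelling TCACNCCAC, only Hmgcs1 carries the sterol element, and other spellings were not searched. Most NF-Y boxes lie before the start.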

How the data were processed

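Spinal cord RNA from the 4 conditions (sham+PSL and ADX+PSL at ZT10 and ZT22) was labelled with Cy3 and hybridized to Agilent 60-mer arrays, 1 per condition. The authors deposited the image analysis output of each array, with spot intensities on the linear scale, their errors and background flags (Feature Extraction 10.7.1.1 in the headers, 9.5.1.1 in the submitters' processing notes), and a table of linear intensities that they had quantile-normalized over the arrays. Each table column matched its own array's scanner signal (r of at least 0.9999 over probes), and was neither log-transformed nor centred. The gene names and flags came from the scanner files. The 43020 spots that are not controls made up 39429 probes.

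Table values were log2-transformed, and each gene was represented by its brightest probe. Genes well above background on all 4 arrays entered the comparisons. Genes past 1.5-fold and genes whose arrays do not overlap between operations or times were counted, with no test. An additive model of operation and time was fitted with limma 3.58.1 in R 4.3.3, with Benjamini-Hochberg adjustment over all 19055 genes and a call at an adjusted p under 0.05. With 1 array per condition it has 1 residual degree of freedom. Its error is each gene's departure from additivity, which limma draws toward a value common to all genes (5.2 total degrees of freedom). Its p-values therefore do not measure a spread between replicate arrays, of which there were none. The fit was tested on simulated data. Other steps used Python 3.11.15, numpy 2.4.6, pandas 2.3.3 and matplotlib 3.10.9. Probe coordinates are those of mm9 in the array files, and promoters those of RefSeq on GRCm38.p6.

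Alternatives were quantile normalization of the processed signal, its shift by the 75th percentile, normexp background correction (offset 50), the mean over a gene's probes, another background filter, a lower fold limit and 2-fold, the methods' rule of a Z-score of 2 with 2-fold, the omission of each array, and an intensity trend. The 32 genes, the further pathway genes, the marker lists and the motifs were chosen with earlier results of these data known. All 32 genes were named. Values on every array were given for those past 1.5-fold, those without overlap and the regulators, and for Idi1, Sqle, Ebp and Abcg1, which were added after their values were seen. The number of arrays limits the precision.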

Additional observations from a re-analysis of the deposited data

Results flagged for a closer look

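For 6 of the 32 genes (18.8%; 24.4% of all genes), the time-of-day difference had opposite signs in the operations, each beyond the technical SD. The difference between the operations was not tested, since each rested on 4 single arrays. The values below are ZT10 minus ZT22 in sham+PSL minus the same in ADX+PSL, on the log2 scale, with a spot error of 0.29. They were -0.34 for Idi1, -0.31 for Sqle, -0.36 for Ebp and -0.45 for Stard4, which were lower at ZT10 in sham+PSL and higher at ZT10 in ADX+PSL. They were 0.25 for Dhcr7 and 0.30 for Nr1h2, which had the reverse order. The second, dim probe of Stard4 had the same sign in both operations.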

How the results depend on the processing

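The median differences over the 32 genes moved by less than the spread in all 20 alternative values, and of 512 single-gene values 508 moved by less than the spread and 4 moved, those of Nsdhl and Stard4 with the mean over probes, with 0 reversals. The limma fit called 0 of the 32 genes under each of the other normalizations, the normexp correction, the mean over probes, the other background filter and the intensity trend. With an array left out it has no residual degrees of freedom and was not run. The count of genes lower in ADX+PSL at ZT22 by 1.5-fold (2) was 1 with normexp correction, 1 with the mean over probes, 0 at 2-fold and 0 by the methods' rule. At a lower limit (log2 0.32), 2 genes were lower at ZT10 in sham+PSL (10.4% of all genes) and 0 at 1.5-fold, 2 were higher at ZT10 in ADX+PSL (7.64%) against 1, 1 was lower at ZT10 in ADX+PSL (8.34%) against 0, and 1 was lower in ADX+PSL than in sham+PSL at ZT10 (7.87%) against 0. The 3 genes lower on both ZT10 arrays became 5 with the 75th percentile shift and 5 with the mean over probes. With 1 array left out, which loosens the rule of no overlap, the genes lower in ADX+PSL numbered 12 to 20 (most without ADX+PSL ZT10; all genes, 30.1% to 32.6%), those higher in ADX+PSL 6 to 10 (most without ADX+PSL ZT22; 34.6% to 37.5%), those lower at ZT10 5 to 15 (most without ADX+PSL ZT22; 30% to 34.5%), and those higher at ZT10 10 to 15 (most without sham+PSL ZT22; 32.7% to 36.7%). No paired analysis was possible because each condition had 1 array and the labels give no replicate numbers. A single array per condition cannot separate the treatment from the mice, and log2 differences under about 0.20 lie within the spot error.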

Other observations

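The lean at ZT22 was present at all levels of brightness, in bins chosen after the values were seen. Among the 7 genes of the list with a mean level of 10000 a.u. or more, all 7 were lower in ADX+PSL at ZT22 (median log2 -0.13), against 54% of 2032 genes in that bin (median -0.017). Among the 15 genes from 1000 to 10000 a.u., 10 were lower (median -0.12; 49.1% of all genes in the bin), and among the 10 below 1000 a.u., 7 were lower (median -0.078; 46.2%). Probes of 1 gene did not always share a sign. Of the 13 genes with more than 1 probe, the probes had 1 sign in 9 genes for the time of day in each operation, in 9 for the operation at ZT10 and in 8 for the operation at ZT22. The largest spread between probes of a gene was log2 0.74, for Nsdhl at ZT22.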
